A study of Mus musculus with 6 samples.

Results

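Lhx6 and 8 other genes were far lower in mouse T helper cells grown with fine particulate matter than in cells grown without it. The 9 genes, Lhx6, Gad2, Asic1, Slc34a3, Pigz, B3gnt8, Sertad4, Fam101b and Apol7e, were found by name among the 34745 genes of the deposited table. They were chosen from the same comparison that is described here. The choice took genes high in all control libraries, far lower in all exposed libraries and not typical of T cells. Their own differences are therefore given as a description, with no test. High is meant against the exposed libraries. By the authors' FPKM the control means of the members lay between the 22.6 and the 71.5 percentile of the genes tested. All 9 passed the filter on low counts, but their control libraries, where they were chosen to be high, were enough for that. Pigz, Slc34a3 and Sertad4 had exposed libraries under the minimum count of 10. In the exposed libraries 3.12 to 7.05% of the control level remained, and the fitted falls were 14.2-fold to 32.1-fold.

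The exposed group holds 3 libraries from cultures given a PM2.5 suspension at 100 µg/ml, and the control group holds 3 libraries from cultures given PBS. All cultures started from naive CD4 T cells taken from the spleen of female C57BL/6 mice, 6 weeks of age, and ran for 4 days on plates coated with antibodies to CD3 and CD28. All received TGF-beta with the interleukins IL-2, IL-6 and IL-23 and antibodies that block IFN-gamma and IL-4, a mixture that drives Th17 differentiation, and PM2.5 or PBS was added 6 h into stimulation. The composition of the particles is not given in the sources used here, and no source says if a replicate is a culture or an animal of its own; SDs and p-values therefore reflect how these 6 libraries vary, which may be technical only. Library totals were 25397965 to 27215853 counts with PM2.5 and 19511561 to 22353131 counts with PBS. A count of 3, used as the floor, equals 0.113 to 0.121 CPM (counts scaled by TMM-adjusted library totals) in a PM2.5 library and 0.131 to 0.151 CPM in a PBS library, for counting error only.

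Some of these genes are known from other tissues. Lhx6 encodes a LIM homeodomain transcription factor that guides the development of inhibitory interneurons of the forebrain, and Gad2 encodes a glutamate decarboxylase, the enzyme type with which such neurons make the transmitter GABA. Asic1 encodes a sodium channel opened by protons, and Slc34a3 a sodium-coupled phosphate transporter of the kidney tubule. Pigz adds a mannose to the glycosylphosphatidylinositol (GPI) anchor that holds some proteins on the outer membrane, and B3gnt8 lengthens the lactosamine chains of glycoproteins. Sertad4 encodes a protein with a SERTA domain, a motif of cell cycle and transcription cofactors; Fam101b, also named Rflnb, encodes refilin B, a partner of the actin cross-linker filamin; Apol7e belongs to the apolipoprotein L family.

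The promoters of the 3 largest falls, Lhx6, Pigz and Fam101b, and of Gad2 are shown because they differ in which known motifs they hold. The members fell together because they were chosen for it, and shared regulation was not tested. Each runs from 250 bases before to 50 bases after a start site, 5′ to 3′ on the gene's own strand, from RefSeq on GRCm38.p6. That of Lhx6 is chr2:36105359-36105658 on the minus strand, that of Gad2 chr2:22622077-22622376 on the plus strand, that of Pigz chr16:31933601-31933900 on the plus strand and that of Fam101b chr11:76027733-76028032 on the minus strand. Capitals mark a match to any motif searched.
Lhx6: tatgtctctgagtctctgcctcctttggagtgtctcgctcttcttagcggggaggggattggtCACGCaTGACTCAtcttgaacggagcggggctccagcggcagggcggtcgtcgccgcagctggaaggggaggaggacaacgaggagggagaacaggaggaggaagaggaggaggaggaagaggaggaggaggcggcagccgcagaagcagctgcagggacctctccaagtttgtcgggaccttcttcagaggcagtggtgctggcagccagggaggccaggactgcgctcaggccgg
Gad2: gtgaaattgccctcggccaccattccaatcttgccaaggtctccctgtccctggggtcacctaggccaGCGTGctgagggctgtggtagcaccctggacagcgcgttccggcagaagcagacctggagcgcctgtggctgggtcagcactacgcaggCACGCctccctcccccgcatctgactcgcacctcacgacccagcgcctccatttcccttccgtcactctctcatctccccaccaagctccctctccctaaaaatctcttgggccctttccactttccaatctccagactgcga
Pigz: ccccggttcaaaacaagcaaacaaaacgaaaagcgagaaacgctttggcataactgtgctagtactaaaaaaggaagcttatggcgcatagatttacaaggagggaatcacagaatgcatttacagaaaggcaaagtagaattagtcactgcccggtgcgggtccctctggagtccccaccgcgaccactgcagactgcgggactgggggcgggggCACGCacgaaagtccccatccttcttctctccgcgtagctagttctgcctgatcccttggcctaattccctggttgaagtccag
Fam101b: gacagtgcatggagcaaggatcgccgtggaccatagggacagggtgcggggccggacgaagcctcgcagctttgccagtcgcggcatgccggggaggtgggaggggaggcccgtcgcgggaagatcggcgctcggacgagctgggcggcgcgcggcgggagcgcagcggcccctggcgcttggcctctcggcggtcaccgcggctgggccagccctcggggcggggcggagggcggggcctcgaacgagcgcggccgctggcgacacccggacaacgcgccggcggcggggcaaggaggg

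The 9 members have 12 promoters in that set, 3 for Lhx6 and 2 for Sertad4. On either strand, 8 motifs were searched: GCGTG, the core of the dioxin response element bound by the aryl hydrocarbon receptor; TGACGTCA, the cAMP response element; TGANTCA, the AP-1 site; TTCNNNGAA, a STAT site; GTCTAGAC, the Smad palindrome; CACGTG, the E-box; TAATTA, a homeodomain core; and TTGCATCA, a composite site of CHOP and ATF4. GCGTG was present in 7 of the 12 promoters, of 6 members, against 32.4% of the 32851 promoters of the same length. Those 6 members were Lhx6, Gad2, Asic1, Pigz, Sertad4 and Apol7e. TGANTCA was present in 1, the Lhx6 promoter printed above, where TGACTCA starts 181 bases before the start site, against 7.81% of all promoters. The letters of the other 6 motifs were in none of the 12 windows, and they were in 0.213 to 8.3% of all promoters. No matches to different motifs overlapped in the members. The GC content of the 12 promoters ran from 48.7% in an alternative Lhx6 promoter to 77.0% in Fam101b, against a median of 52.7% over all promoters. The only RefSeq promoters of Asic1 and B3gnt8, and the alternative promoters of Lhx6 and Sertad4, lie inside the gene bodies that the table gives. A match is a stretch of letters and shows no binding.

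Lhx6 (ENSMUSG00000026890, mm10 chromosome 2, 36081953 to 36105408, minus strand) had the highest mean CPM of the members in both groups, before any division by length. Its 3 PM2.5 libraries held 69, 91 and 95 counts, and its 3 PBS libraries held 2116, 2159 and 2695 counts. On the scale of CPM adjusted by TMM factors these were 2.59, 3.56 and 3.82 with PM2.5 and 93.5, 108.7 and 117.3 with PBS. The groups were far apart, and the level was 32.1-fold lower with PM2.5 (3.33 ± 0.65 CPM with PM2.5 and 106.5 ± 12.1 CPM with PBS, SD, n = 3 each). Replicate 1 was the lowest library of both groups. Of the 10189 genes that averaged 5 CPM or more in either group, Lhx6 had the largest fall.

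Sertad4 (ENSMUSG00000016262, chromosome 1, 192844488 to 192855756) held 11, 10 and 6 counts in the PM2.5 libraries and 184, 144 and 190 counts in the PBS libraries. The groups did not overlap, at 0.35 ± 0.094 CPM with PM2.5 and 7.88 ± 0.55 CPM with PBS, a log2 difference of -4.47. A gene of unknown role on the opposite strand, Gm15867, overlaps it and was near 0 in both groups (0.013 CPM with PM2.5 and 0.015 CPM with PBS).

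Gad2 (ENSMUSG00000026787, chromosome 2, 22622205 to 22693874) stood at 2.74, 2.43 and 2.38 CPM in the PM2.5 libraries and at 42.9, 43.2 and 41.7 CPM in the PBS libraries, a log2 difference of -4.08. Relative to their mean, the PBS values of Gad2 were the closest together of all members, with a coefficient of variation of 1.79%. Asic1 (ENSMUSG00000023017, chromosome 15, 99670718 to 99701127) stood at 1.05, 1.21 and 1.25 CPM with PM2.5 and at 17.01, 16.8 and 16.0 CPM with PBS, a log2 difference of -3.82. Neither gene had a PM2.5 library near the lowest PBS library.

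Slc34a3 (ENSMUSG00000006469, chromosome 2, 25228898 to 25234364) was the least abundant member in the PBS group when levels are not divided by length, with 168, 108 and 165 counts there, and held 13, 17 and 3 counts in the PM2.5 libraries. The groups did not overlap, but PM2.5 replicate 3 was at the floor of 3 counts, so the log2 difference of -3.95 rests on few reads. It was -3.53 without that library and -4.41 without PM2.5 replicate 2.

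Pigz (ENSMUSG00000045625, chromosome 16, 31933851 to 31946046) held 7, 14 and 7 counts with PM2.5 and 235, 194 and 206 counts with PBS, a log2 difference of -4.72, and all PBS libraries lay far above all PM2.5 libraries. B3gnt8 (ENSMUSG00000059479, chromosome 7, 25626654 to 25635100) stood at 2.22, 1.88 and 2.05 CPM with PM2.5 and at 40.6, 39.3 and 43.7 CPM with PBS, a log2 difference of -4.32. The gene of a branched-chain amino acid enzyme, Bckdha, overlaps B3gnt8 on the opposite strand. Bckdha had 64.8 ± 2.79 CPM with PM2.5 and 68.4 ± 3.77 CPM with PBS (SD, n = 3 each) and did not pass the test (adjusted p = 0.193 by the quasi-likelihood test of edgeR). The strand setting of the counting is not given, so reads of the overlap cannot be assigned to either gene with certainty.

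Fam101b (ENSMUSG00000020846, chromosome 11, 76019194 to 76027782) held 11, 10 and 19 counts with PM2.5 and 313, 283 and 307 counts with PBS, a log2 difference of -4.72. Apol7e (ENSMUSG00000071716, chromosome 15, 77698889 to 77719288) held 25, 20 and 32 counts with PM2.5 and 320, 304 and 355 counts with PBS, a log2 difference of -3.90. In both genes PM2.5 replicate 3 was the highest exposed library and the groups did not overlap. Apol7e has close relatives in the same cluster with which it could share reads, so its own level is uncertain.

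**Figure D1:**
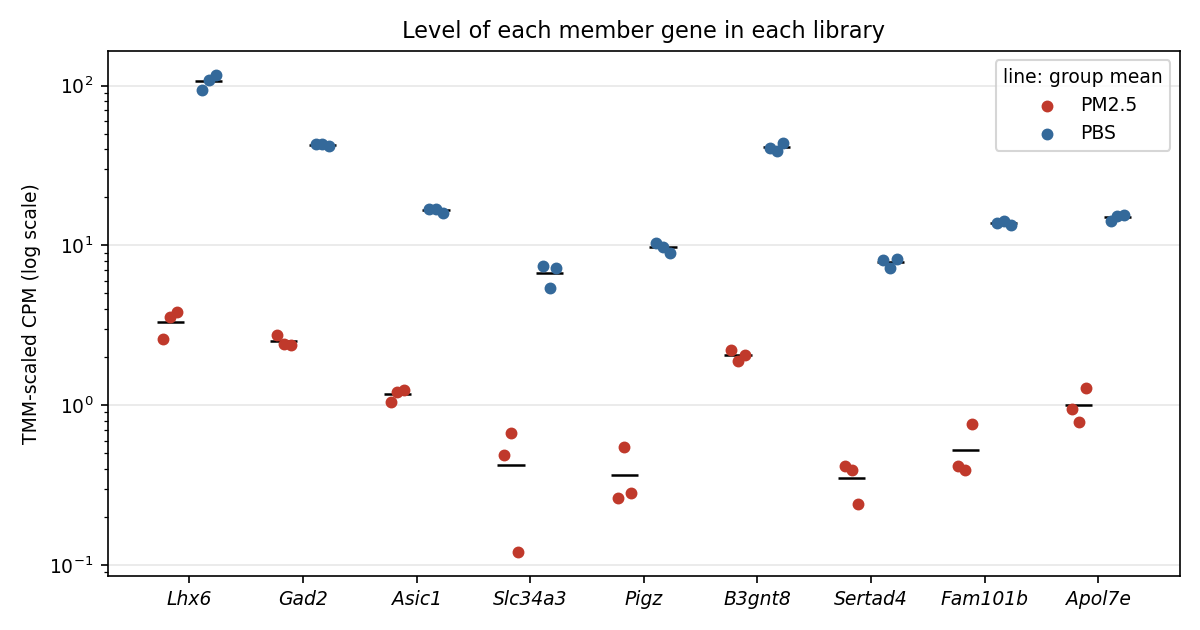
Level of each member in each of the 6 libraries, as TMM-scaled CPM on a log scale; red points are PM2.5 libraries, blue points PBS libraries, and lines are group means (n = 3 each). Every PM2.5 point lies below every PBS point of the same gene, and the PM2.5 points of Slc34a3 are the most scattered, with replicate 3 at 3 counts.

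For all 9 members the groups did not overlap. Of the 12967 genes tested 74.9% had groups that did not overlap, 37.4% in the lower direction, and 70.6% passed an adjusted p under 0.05 in either direction. All 9 were at least 8-fold lower, against 1.23% of the genes tested that passed and were at least 8-fold lower. These shares are given only as background, because the members were chosen for this. Ranked by fold among the 10189 genes with at least 5 CPM in a group, the members took places 1, 2, 3, 5, 7, 10, 11, 12 and 13. Asic1, at -3.82 on the log2 scale, was the smallest fall among them, and the next gene in the order, Tnfrsf8, which encodes the activation receptor CD30, was at -3.79. The sum over the members was 11.1, 11.9 and 12.2 CPM in the PM2.5 libraries and 247.9, 260.0 and 272.0 CPM in the PBS libraries. Lhx6 made up 28.2% of that sum with PM2.5 and 40.9% with PBS.

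Levels of different genes can be compared only per length. Per kilobase of the exons that GENCODE M21 gives each gene, Lhx6 had 0.692 ± 0.14 CPM per kb with PM2.5 and 22.2 ± 2.5 CPM per kb with PBS (SD, n = 3 each). In the PBS libraries Gad2 followed with 7.25 ± 0.13 CPM per kb. B3gnt8 (6.36 ± 0.35) and Apol7e (6.20 ± 0.30 CPM per kb) came next and overlapped each other. Fam101b (3.93 ± 0.13) and Pigz (3.82 ± 0.28 CPM per kb) also overlapped, as did Asic1 (2.89 ± 0.091) and Slc34a3 (2.83 ± 0.46 CPM per kb), and Sertad4 was lowest at 2.05 ± 0.15 CPM per kb. With PM2.5 the level per length was highest for Lhx6 and lowest for Sertad4, at 0.091 ± 0.024 CPM per kb, and the 5 lowest genes, Asic1, Slc34a3, Fam101b, Pigz and Sertad4, each overlapped the next in the order. By the authors' FPKM, which divide by another length, Apol7e (0.44 FPKM) came before Gad2 (0.41 FPKM) and Lhx6 (0.38 FPKM) in the PM2.5 group, whereas Lhx6 (12.8 FPKM) stayed first in the PBS group. On that scale the PBS means of the members lay between the 22.6 and the 71.5 percentile of the genes tested, and their PM2.5 means between the 2.04 and the 15.3 percentile.

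The members were chosen for a level in all PBS libraries far above that in all PM2.5 libraries. Their spread within a group is therefore not fully independent of the choice. Lhx6 varied more than its counts alone would give: its coefficient of variation was 19.5% with PM2.5 and 11.3% with PBS, against 10.8% with PM2.5 and 2.07% with PBS from counting. Slc34a3 did so too, at 65.4% with PM2.5 and 16.2% with PBS, against 30.2% with PM2.5 and 8.25% with PBS from counting. Pigz was nearer to counting error, at 43.8% with PM2.5 and 7.32% with PBS, against 32.7% with PM2.5 and 6.87% with PBS from counting. A coefficient of variation from 3 libraries is itself imprecise, so small gaps such as those of Pigz cannot be told from counting error. Gad2 (7.90% with PM2.5 and 1.79% with PBS), Asic1 (8.94% and 3.17%) and Sertad4 (26.8% and 6.99%) varied by less than their counting error in both groups. The members did not share an order of libraries. In the PM2.5 group replicate 3 was highest for Lhx6, Asic1, Fam101b and Apol7e, replicate 1 for Gad2, B3gnt8 and Sertad4, and replicate 2 for Slc34a3 and Pigz.

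**Figure D2:**
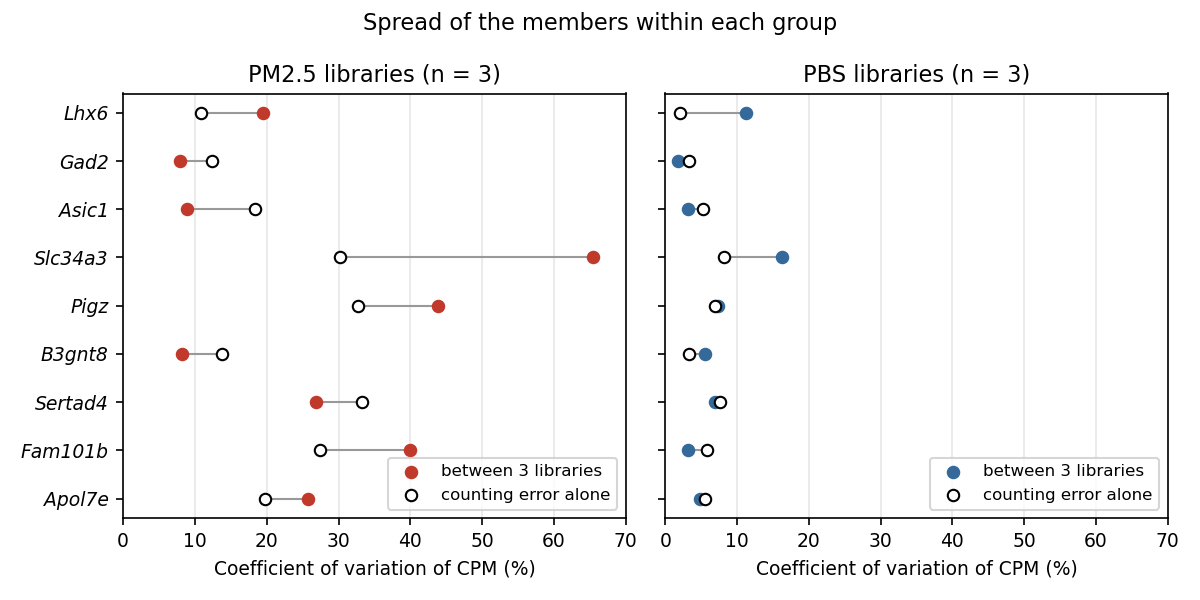
Spread of each member between the 3 PM2.5 libraries (left, red) and the 3 PBS libraries (right, blue) as the coefficient of variation of CPM in percent; open circles are the value that counting error alone would give. Lhx6, Slc34a3 and, by less, Pigz lie right of their open circle in both panels, and the spread is wider with PM2.5, where counts are low.

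The genes whose profile over the 6 libraries was most like that of Lhx6, by the root mean square difference of centred log2 CPM among 10188 genes, were Fam101b (0.318), which is a member, and then Cxcr5 (0.349), which encodes a chemokine receptor of follicular lymphocytes, and the interferon-inducible GTPase gene Tgtp1 (0.364). Outside the members, Tnfrsf8 (0.626), the protease inhibitor gene Serpinb1a (0.643) and Apol9b (0.653) followed. The measure takes in both the size of the fall and the spread within groups: Slc34a3, place 11 by fall, was place 39 by likeness. Since Lhx6 has the largest fall, genes with large falls come first.

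The identity of the cells was checked on marker genes. All 10 T cell markers were tested, with sums of 3600 to 3650 CPM with PM2.5 and 4050 to 4140 CPM with PBS. Of these, 6 fell (Cd3e, Cd3d, Cd3g, Cd4, Lck and Lat), 3 rose (Cd247, Cd5 and Cd28) and Zap70 did not pass, with log2 differences from -1.04 for Cd3g to 0.59 for Cd28. Other interneuron genes were nearly absent: of 17 interneuron markers, 15 stayed under 1 CPM in every library and 7 had no count at all (Dlx5, Dlx6, Nkx2-1, Sst, Pvalb, Erbb4 and Lhx8), with a summed level of 2.55 to 2.98 CPM with PM2.5 and 2.57 to 3.87 CPM with PBS. Of 12 general neuron markers 8 were under 1 CPM in every library and 5 at 0 (Rbfox3, Syt1, Stmn2, Nefl and Dcx), and the sum was 37.5 to 39.0 CPM with PM2.5 and 67.4 to 72.5 CPM with PBS. Of the 4 tested, Syn1 (-1.27), Tubb3 (-1.12) and Map2 (-0.78) fell on the log2 scale, and Gap43 did not pass (0.08). Syn1 had 18.0 ± 0.52 CPM with PM2.5 and 43.4 ± 1.39 CPM with PBS. Of 10 kidney tubule markers 9 were under 1 CPM and 6 at 0 (Slc22a6, Lrp2, Umod, Slc5a2, Kap and Aqp2), with sums of 1.43 to 1.45 CPM with PM2.5 and 4.29 to 5.24 CPM with PBS. The 1 that was tested, Cubn, held 29, 29 and 29 counts with PM2.5 and 86, 94 and 95 counts with PBS.

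Markers of other splenic cells also differed in level between the groups. The 5 markers of CD8 and gamma-delta T cells, none of them at 0, summed to 27.2 to 30.9 CPM with PM2.5 and 63.2 to 65.9 CPM with PBS. Trgv2 (-2.73), Tcrg-C1 (-2.62), Trdc (-0.97) and Cd8a (-0.86) fell, and Cd8b1 rose (0.55). The 5 NK cell markers, with Ncr1 and Klra8 at 0, summed to 1.88 to 1.97 CPM with PM2.5 and 3.18 to 3.40 CPM with PBS. Both that were tested moved in opposite directions, Klre1 down (-1.78) and Eomes up (3.58, with 75 counts over the PM2.5 libraries and 5 over the PBS libraries). The 10 myeloid markers, with Lyz2, S100a8, S100a9 and Siglech at 0, summed to 3.01 to 3.45 CPM with PM2.5 and 4.66 to 6.14 CPM with PBS. The 6 B cell markers summed to 21.2 to 22.1 CPM with PM2.5 and 4.33 to 5.39 CPM with PBS, mainly from the transcription factor gene Ebf1 (21.5 ± 0.50 CPM with PM2.5 and 3.52 ± 0.25 CPM with PBS), with Ms4a1 at 0. The other B cell marker tested, Cd79b, fell (-2.59), and Pax5 had 2 counts over the PM2.5 libraries and 21 over the PBS libraries. The 7 stromal and endothelial markers, with Col3a1 at 0, summed to 48.1 to 51.2 CPM with PM2.5 and 81.1 to 86.6 CPM with PBS, nearly all from Pecam1. The 6 erythroid markers, with Hba-a1, Hbb-bs, Hbb-bt and Alas2 at 0, summed to 0.0751 to 0.235 CPM with PM2.5 and 0.131 to 0.265 CPM with PBS. The part of these shifts in the falls of the members was not tested, and in bulk RNA fewer cells of a type and less RNA per cell cannot be told apart.

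Over 10 lists with 162 genes, 94 were tested; 23 rose, 48 fell and 23 did not pass (quasi-likelihood test of edgeR over all genes, adjusted p under 0.05). That is 24.5% higher and 51.1% lower, against 35.2% higher and 35.3% lower among all 12967 genes tested. The lists were chosen with earlier results of these data known, so these shares describe the listed genes only. Their median log2 difference was -0.21, against -0.007 over all genes tested. The lists ranged from a median of -2.89 for the apolipoprotein L family to 0.37 for the refilin and filamin list.

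**Figure D3:**
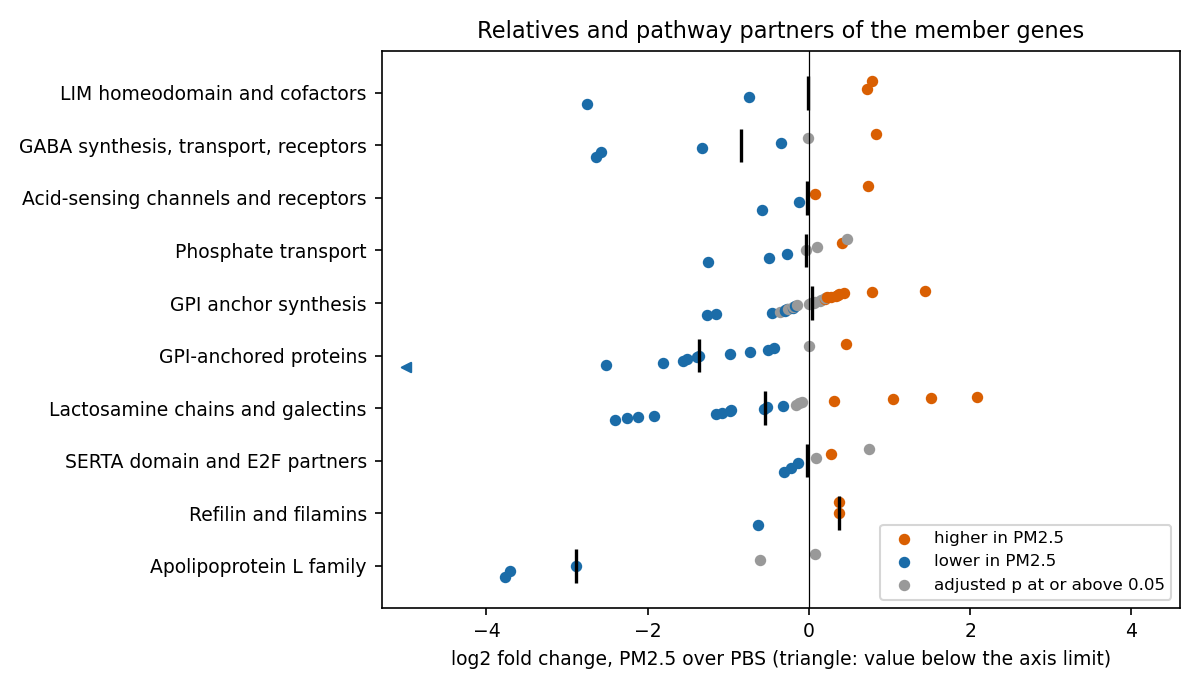
Log2 fold change, PM2.5 over PBS, of every tested gene in 10 lists of relatives and pathway partners; orange points rose, blue points fell, grey points did not pass, and black bars are list medians. The triangle is a gene with 0 counts in the PM2.5 libraries, whose fitted value is no measured fold. The apolipoprotein L and GPI-anchored protein lists lie mostly left of 0, whereas the GPI anchor synthesis list is centred near 0 (median 0.04).

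Most LIM homeodomain genes and cofactors were below the filter on low counts: of 17 listed, 6 had no count in any library, the nearest relative Lhx8 among them, and 4 were tested. Ldb1, the cofactor through which LIM factors act, fell to 235.8 ± 9.49 CPM with PM2.5, against 392.9 ± 12.8 CPM with PBS (log2 fold change -0.74, SE 0.04, adjusted p = 4.14e-08). The LIM-only gene Lmo2 fell by 2.75, and Lmo4 (0.79) and Lhx2 (0.72) rose on the log2 scale. Lhx2, the LIM homeodomain gene of the list that was tested, had 4.14 ± 0.46 CPM with PM2.5 and 2.5 ± 0.17 CPM with PBS. It moved against Lhx6.

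Of 31 genes of GABA synthesis, transport, breakdown and reception, 14 had no count and 6 were tested, of which 1 rose and 4 fell. Gad1, the sister enzyme of Gad2, rose to 2.16 ± 0.31 CPM with PM2.5, against 1.201 ± 0.37 CPM with PBS (0.84, SE 0.24, adjusted p = 0.00924). It moved against Gad2, which averaged 2.52 ± 0.20 CPM with PM2.5 and 42.6 ± 0.76 CPM with PBS. The GABA-degrading transaminase gene Abat fell to 2.56 ± 0.34 CPM with PM2.5, against 16.0 ± 2.02 CPM with PBS (-2.64, SE 0.13, adjusted p = 3.14e-08). The next enzyme of that route, Aldh5a1 (-1.33), the aldehyde dehydrogenase Aldh9a1 (-0.35) and the receptor subunit gene Gabrr2 (-2.58) also fell. The vesicular GABA transporter gene Slc32a1 had 1 count over the PM2.5 libraries and 0 over the PBS libraries. Gabbr1, a subunit of the metabotropic GABA receptor, had 54.1 ± 5.39 CPM with PM2.5 and 54.7 ± 4.98 CPM with PBS and did not pass (adjusted p = 0.890 in edgeR).

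Of 11 acid-sensing channels and receptors 4 were tested. The channel Asic3, closest to Asic1 among those detected, fell to 4.27 ± 0.89 CPM with PM2.5, against 6.40 ± 0.39 CPM with PBS (-0.58, SE 0.15, adjusted p = 0.00595), far less than Asic1 in size. The receptor gene Gpr132 rose (0.73). Gpr65, a proton-sensing receptor, was called higher (0.08, adjusted p = 0.0479 in edgeR) but lost that call in all 13 alternatives. Asic2 and Asic4 had no count.

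Among phosphate transporters, the other members of the Slc34 family were silent, with 0 counts over the PM2.5 libraries and 2 over the PBS libraries for Slc34a1 and none for Slc34a2. Slc20a1, the housekeeping phosphate importer, fell to 82.2 ± 6.59 CPM with PM2.5, against 116.0 ± 1.11 CPM with PBS (-0.50, SE 0.05, adjusted p = 1.22e-05). The phosphate exporter Xpr1 (-0.27) and the scaffold gene Slc9a3r1 (-1.25) fell, and the mitochondrial phosphate carrier Slc25a3 rose (0.42). Of the 14 genes listed 7 were tested, with 1 rise and 3 falls.

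All 28 genes of GPI anchor synthesis were tested, with 9 rises, 8 falls, 11 that did not pass and a median log2 difference of 0.04. Pgap1, which remodels finished anchors, rose to 16.0 ± 0.99 CPM with PM2.5, against 5.88 ± 0.20 CPM with PBS (1.44, SE 0.08, adjusted p = 9.60e-08). The early enzyme gene Pigl (-1.27) and Pigp (-1.15) fell, and Mpdu1, which aids the use of dolichol-linked mannose, rose (0.36). The RNAs of genes whose proteins carry the anchor moved otherwise: of 13 tested, 11 fell and 1 rose, with a median of -1.36. That is 84.6% lower, against 35.3% of all genes tested, and protein was not measured. The list is short and was chosen with earlier results of these data known, so the share holds for the listed genes only. Among them Nt5e, which encodes the ectonucleotidase CD73, had 268.8 ± 1.26 CPM with PM2.5 and 701.6 ± 10.4 CPM with PBS (-1.38, SE 0.03, adjusted p = 3.17e-11). The prion protein gene Prnp (-1.36), the semaphorin Sema7a (-1.51) and Cd24a (-0.72) fell as well. A relation between these falls and the low level of Pigz was not tested.

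Of 18 genes of lactosamine chains and galectins tested, 4 rose and 11 fell, with a median of -0.54. B3gnt2, the main enzyme of the same reaction as B3gnt8, rose to 202.7 ± 5.44 CPM with PM2.5, against 70.9 ± 4.55 CPM with PBS (1.52, SE 0.05, adjusted p = 1.03e-09). It thus moved against B3gnt8. The branching enzymes Gcnt2 (-2.40) and Mgat5 (-1.93) and the galactosyltransferase B4galt1 (-1.15) fell on the log2 scale.

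Among the relatives of Sertad4, Sertad1 had 42.0 ± 2.08 CPM with PM2.5 and 39.6 ± 0.31 CPM with PBS and did not pass (adjusted p = 0.163 in edgeR). Sertad3 fell by 0.23 on the log2 scale (adjusted p = 0.0245 in edgeR), a call lost with DESeq2 and without PM2.5 replicate 1 or 3 or PBS replicate 1 or 3. The SERTA domain gene Cdca4 rose (0.28), and the cell cycle factors E2f1 (-0.31) and Tfdp1 (-0.14) fell. Fam101a, the sister gene of Fam101b, had 0 counts over the PM2.5 libraries and 3 over the PBS libraries. Flna, the main filamin, fell to 1170 ± 9.67 CPM with PM2.5, against 1813 ± 78.6 CPM with PBS (-0.63, SE 0.03, adjusted p = 3.98e-08). Filip1l was called higher (0.37), but not with limma on FPKM or without PM2.5 replicate 1, PM2.5 replicate 2 or PBS replicate 2.

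Of 13 genes of the apolipoprotein L family 7 had no count, Apol7a and Apol7c among them, and 3 of the 5 tested fell. Apol9b held 120, 118 and 107 counts with PM2.5 and 1361, 1103 and 1544 counts with PBS, and its groups were far apart (-3.77, SE 0.09, adjusted p = 1.02e-10). Apol9a (-3.70, adjusted p = 7.78e-09) and Apol7b (-2.89, adjusted p = 1.38e-05) fell as well in edgeR's test. Apol8 did not pass, at 0.26 ± 0.17 CPM with PM2.5 and 0.39 ± 0.12 CPM with PBS, and Apol10b had 2 counts over the PM2.5 libraries and 18 over the PBS libraries. These genes are near copies of each other in part, and reads could have been split between them.

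Genes lying next to a member were also read for the same comparison, since position played no part in the choice. Within 100 kb of a member lay 79 genes, of which 48 were tested. Of these, 7 rose (14.6%), 28 fell (58.3%) and 13 did not pass, against 35.2% higher and 35.3% lower among all genes tested. Their median log2 difference was -0.42, against -0.007 for all genes tested. The dense region around Slc34a3 gave 14 of the 48 genes, and without it 19 of 34 fell (55.9%).

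The steepest fall of a tested neighbour was at Slc34a3. Rnf224, a ring finger gene that lies 112 bases upstream of Slc34a3 on the same strand, held 6, 3 and 3 counts with PM2.5 and 89, 60 and 72 counts with PBS (-4.39, SE 0.28, adjusted p = 2.13e-07). Its groups did not overlap, and its fall was of the size of that of Slc34a3; whether reads of one gene were counted in the other was not tested. On the other side the tubulin gene Tubb4b fell by 1.05. Chosen after their values were seen, Cysrt1 (-2.91), Rnf208 (-2.25) and the Notch-regulated gene Nrarp (-2.43), within the same 100 kb, fell as well. Ndor1, next to Rnf208 and likewise chosen after its value was seen, rose (0.63, adjusted p = 0.00386 in edgeR).

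Next to Lhx6, the RNA-binding protein gene Rbm18 fell by 0.78 and the respiratory chain gene Ndufa8 by 0.59 on the log2 scale, far less than Lhx6, and the nearest gene, Morn5, had no count. The predicted gene Gm13429, chosen after its values were seen, lies 96906 bases away and fell to 0.27 ± 0.072 CPM with PM2.5, against 2.56 ± 0.092 CPM with PBS (-3.21, SE 0.24, adjusted p = 6.89e-07). Beside Gad2, the myosin gene Myo3a fell by 1.05 (adjusted p = 0.0182 in edgeR), a call lost with DESeq2 and without PM2.5 replicate 1 or 2 or PBS replicate 1 or 2, and Apbb1ip, an adaptor of integrin activation, by 0.64. Asic1 lay between Smarcd1, a chromatin remodelling subunit (-0.36), and Racgap1, a cytokinesis gene (-0.50), and both fell. Beside Pigz, Dlg1 rose (0.51) and NCBP2-AS2 fell (-0.53). Of the 8 tested neighbours of B3gnt8, 2 rose, 3 fell and 3 did not pass, and the nearest on either side, Atp5sl (-0.26) and Exosc5 (0.31), moved in opposite directions. Hhat, next to Sertad4, fell by 0.72, and Syt14 did not pass (0.21, adjusted p = 0.331 in edgeR). Next to Fam101b, Vps53 did not pass (-0.02, adjusted p = 0.804 in edgeR) and Rph3al fell by 0.64.

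**Figure D4:**
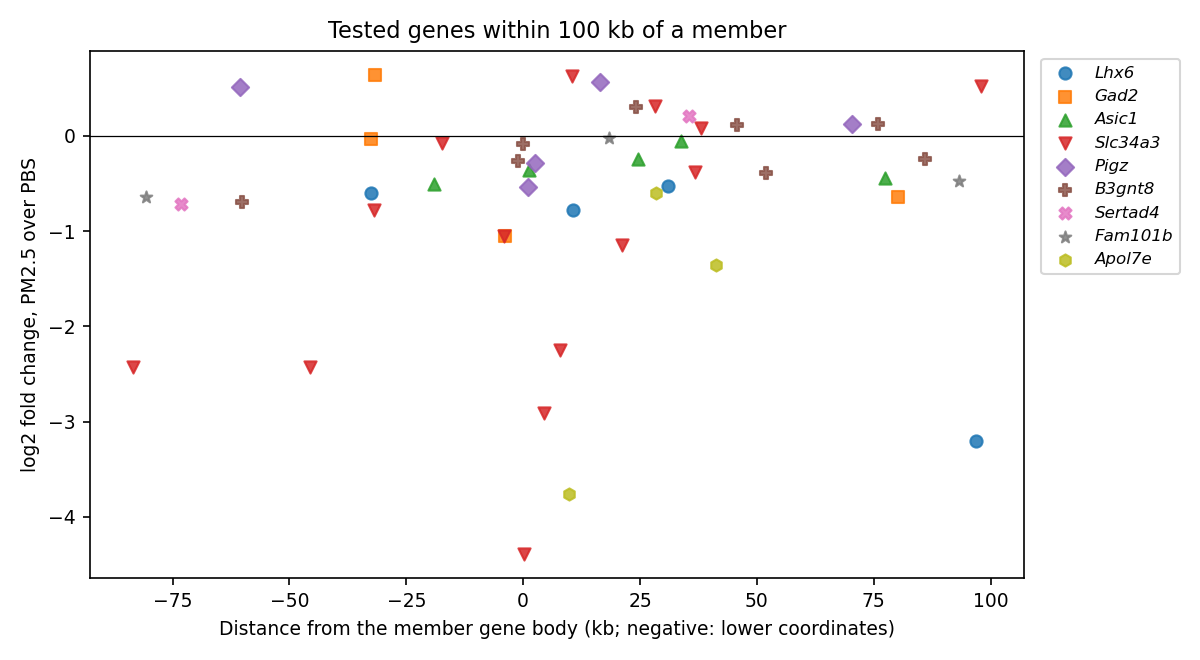
Log2 fold change, PM2.5 over PBS, of the 48 tested genes within 100 kb of a member against their distance in kb from its gene body; each colour and shape is 1 member, whose own value is not drawn. Most points lie between -1 and 1, and those below -2 are neighbours of Slc34a3, Apol7e (Apol9b at -3.77) and Lhx6 (Gm13429 at -3.21).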

How the data were processed

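RNA of 6 libraries, 3 with PM2.5 and 3 with PBS, was read from 1 deposited table. It gives raw counts per gene and the authors' FPKM, per the file headers; TopHat2 2.0.6 and mm10 are named in the submitters' processing notes, and which program counted the reads, on which annotation and with what strand setting, is not given in the sources. Libraries were grouped by their treatment label. With filterByExpr (minimum count 10, minimum total 15) 12967 genes were kept, with 99.9% of the counts, and tested by edgeR 4.0.16 under R 4.3.3 (TMM, robust glmQLFit, two-sided quasi-likelihood F test, Benjamini-Hochberg adjustment over all genes tested, threshold 0.05). The SE of a log2 fold change is its size divided by the root of the F statistic. Alternatives used DESeq2 1.42.0 and limma 3.58.1. Simulated data, with 200 of 12967 genes changed 2-fold, were fitted by edgeR with and without replicate block, DESeq2 and limma on log2(FPKM + 0.1). Of the genes called there, 4.62% were false with edgeR, 6.49% with DESeq2 and 6.09% with limma. Far fewer genes changed in that simulation than were called in the data, and the other alternatives were not simulated. The members, lists and motifs were chosen with earlier results of these data known. Named genes are the members, up to 4 per list with the smallest adjusted p, fixed closest relatives, overlapping and nearest tested neighbours, and the 5 most like Lhx6 outside the members; a gene named outside this rule that was picked for its values is marked so, and others are named only as markers, as genes without counts or as genes that did not pass. Strands, exons and promoters come from GENCODE M21 and RefSeq, both on GRCm38; all 9 members matched, Fam101b as Rflnb. Every listed gene was found in the table. A few genes chosen this way are not reported here.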

Additional observations from a re-analysis of the deposited data

How the results depend on the processing

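No member's fall changed sign in any alternative tried. The members were chosen for large falls in these same libraries, so a change of sign was hardly possible and the kept sign is no support. The smallest falls came with limma on log2(FPKM + 1), a scale that compresses low genes (-3.31 for Lhx6, -1.06 for Sertad4). Among the named genes followed on leaving out any 1 library, no called fold moved by over 1.5 times. Named marker genes outside that set, Eomes and Cd79b among them, were not followed. Over the alternatives 3620 to 4730 genes of all tested were called higher and 3717 to 5078 lower.

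With a mean of at least 5 CPM fewer genes are tested, and the genes called became 1 higher and 1 lower for the LIM list, 0 higher and 2 lower for the GABA list, 1 higher for acid sensing, 2 higher for lactosamine chains and 15 higher over all lists; Sertad4 and Slc34a3 were not tested there. For acid sensing 1 gene was called higher in every alternative, against 2, as Gpr65 lost its call; leaving out 1 library gave 1 to 1. For the refilin and filamin list 1 was called higher with both limma fits, and 1 to 2 on leaving out 1 library. Vps53, not called, ranged from -0.0534 to 0.0315 on leaving out 1 library, and turned positive without PM2.5 replicate 2 (0.0315) and without PBS replicate 1 (0.0050). The cause of these shifts was not tested.

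Deviations of same-numbered libraries correlated at 0.013, 0.007 and 0.045 across genes, the last being the highest value of any pair. Differently numbered libraries correlated at -0.037 to 0.023, and PM2.5 replicate 2 correlated best with PBS replicate 1 (0.023). With 3 libraries a group and values this close to 0, whether replicate numbers pair the samples cannot be decided. With the replicate number as a block 4534 genes were called higher and 4469 lower, against 4567 and 4582, and 2 SERTA list genes were called higher, against 1. Depth limits the PM2.5 values of Pigz, Slc34a3, Sertad4 and Fam101b, which rest on 3 to 19 counts a library.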

Other observations

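The deposited FPKM divide by gene lengths that differ from the merged exons of GENCODE M21. The length implied by counts and FPKM was 8513 bases for Lhx6, 1.77 times its merged exons, and 3763 bases for Asic1, 0.656 times. For B3gnt8 it was 9786 bases, longer than the 8447 bases that the gene spans and equal to the sum of its GENCODE M21 transcripts. Of 9435 tested genes with at least 1000 counts, 72.5% had an implied length above their merged exons, with a median ratio of 1.26. The order of the members by FPKM therefore depends on this length, whereas folds between groups do not.

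Of the 17 interneuron markers 2 were tested, and they moved in opposite directions. The homeobox gene Dlx2, which acts before Lhx6 in interneuron development and was chosen after its values were seen, fell to 0.298 CPM with PM2.5, against 1.44 CPM with PBS (log2 fold change -2.26, adjusted p = 3.07e-05 in edgeR), and Gad1 rose (0.84, adjusted p = 0.00924 in edgeR).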
